A study of Macaca mulatta with 6 samples.

Results

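The miR-15/16 family comprised 19 of the 2046 entries in the table of plasma small RNAs, and it was selected by name under any species prefix, with every arm and isomiR kept. Of these entries, miR-15 accounted for 7 (2 of miR-15a and 5 of miR-15b), miR-16 for 5, miR-195 for 2, miR-424 for 2, miR-497 for 1 and miR-503 for 2. The libraries were made from plasma of 3 adult male rhesus monkeys (Macaca mulatta), with 3 libraries from blood taken 3 h after the onset of ischemia and 3 from blood of the same animals before ischemia. Ischemia followed middle cerebral artery occlusion (MCAO), in which a blood clot was released through a catheter at the end of the M1 segment of the right artery. All monkeys were fasted and anesthetized with ketamine and propofol, and the study kept the animals whose artery was still closed at the 3 h angiogram. No sham-operated group was among the samples, so that ischemia, the procedure, the anesthesia and the passing of time cannot be told apart.

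MicroRNAs of this family share the bases that pair with target mRNAs, the seed, and in human and mouse cells they are known to repress cell cycle genes such as cyclins as well as the survival gene BCL2. The genes lie in pairs, each transcribed as a unit and cut into separate hairpins. Either strand of a hairpin, the 5p or the 3p arm, can be kept, and isomiRs are versions of an arm with trimmed, extended or substituted ends. In the RefSeq annotation of the rhesus assembly T2T-MMU8v2.0, used only for gene names and order, MIR15A neighbours MIR16-1 on chromosome 17, MIR15B neighbours MIR16-2 within SMC4 on chromosome 2, MIR195 neighbours MIR497 on chromosome 16, and MIR424 neighbours MIR503 on chromosome X, where MIR542 and the miR-450 genes follow. miR-16 is plentiful in red blood cells and has served as a reference in plasma assays. miR-15a and miR-16-1 are lost in human chronic lymphocytic leukemia, the miR-15 group restrains division of mouse heart muscle cells after birth, and miR-424 and miR-503 act in human endothelial cells, where low oxygen is known to raise miR-424.

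The most abundant 5p entry of each gene is printed 5′ to 3′ from the deposited table, because the members are told apart by the bases behind a common seed; capitals mark the seed, bases 2 to 8.
miR-16-5p: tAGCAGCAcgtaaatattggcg
miR-195-5p: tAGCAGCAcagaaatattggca
miR-15b-5p: tAGCAGCAcatcatggtttaca
miR-15a-5p: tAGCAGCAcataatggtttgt
miR-497-5p: cAGCAGCAcactgtggtttgt
miR-424-5p: cAGCAGCAattcatgttttga
miR-503-5p: tAGCAGCGggaacagttctga
A total of 7 entries carried the seed AGCAGCA, among them a low one named for the goat, and miR-503-5p carried AGCAGCG. These were 8 entries in all with AGCAGC at bases 2 to 7, or 0.391% of the table, and 0 such entries lay outside the family. Aligned from the 5′ end, miR-16-5p and miR-195-5p were identical at 19 of 22 positions and miR-15a-5p and miR-15b-5p at 18 of 21.

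The 3p arms are shown because they tell gene copies apart that make the same 5p sequence, miR-16-1 and miR-16-2, and because the arms of miR-424 are compared further on; capitals again mark bases 2 to 8, which differ between these arms.
miR-16-2-3p: aCCAATATtactgtgctgctt
miR-16-1-3p: cCAGTATTaactgtgctgctga
miR-15a-3p: cAGGCCATattgtgctgcctct
miR-15b-3p: cGAATCATtatttgctgctct
miR-424-3p: cAAAACGTgaggcgctgctat
miR-503-3p: gGAGTATTgtttccgctgccaga
The entry for miR-16-2-3p was named for the human miRNA, with 1 base added at its 5′ end and 2 removed at its 3′ end. By name, miR-15a-3p lacks 1 base at its 5′ end and miR-424-3p has 1 added there. For these entries the capitals mark bases 2 to 8 as deposited, which is not the annotated seed. The other 3p entries shown, and miR-15a-5p, miR-195-5p, miR-424-5p and miR-503-5p above, are named with changes at the 3′ end only.

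All levels below are normalized counts as deposited. Totals were 6036831 to 9737589 counts per library after ischemia and 10745499 to 15548693 before ischemia, so that 3 counts, taken as the floor for an entry listed at 0, correspond to 3.85 to 5.58 and 1.70 to 2.34 normalized counts in these groups. Rare entries were thus measured less precisely after ischemia. Scaling by library totals in place of the deposited factors lowered the median difference over all tested entries by 0.37 on the log2 scale, and each difference below is given relative to the deposited scaling unless stated otherwise. The numbers 1, 2 and 3 stand for the monkeys, where same-numbered libraries were taken as the same animal, which the labels do not state.

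The family held 1.73, 1.08 and 2.41% of all normalized counts after ischemia in monkeys 1, 2 and 3, against 1.003, 1.11 and 1.79% before ischemia, or 1.74 ± 0.66% and 1.30 ± 0.43% (SD, n = 3 each). The groups overlapped, and the share after ischemia was higher in monkeys 1 and 3 but not in monkey 2. Shares of all normalized counts, here and below, follow library totals and not the deposited scaling. Totals of the deposited values were 11226687 to 13425555 after and 8371413 to 10271440 before ischemia. A share can therefore be lower after ischemia where the deposited level is higher. Without miR-16 the share was 0.351 ± 0.081% after and 0.434 ± 0.120% before ischemia, and miR-16 alone made up 78.5 ± 6.5% and 66.0 ± 7.7% of the family's counts. miR-15a accounted for 2.05 ± 0.45% of the family after and 7.99 ± 1.40% before ischemia. miR-15b accounted for 17.3 ± 5.3% and 18.4 ± 1.5%. In whole plasma, fewer cells of a type and less RNA released per cell cannot be told apart.

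**Figure D1:**
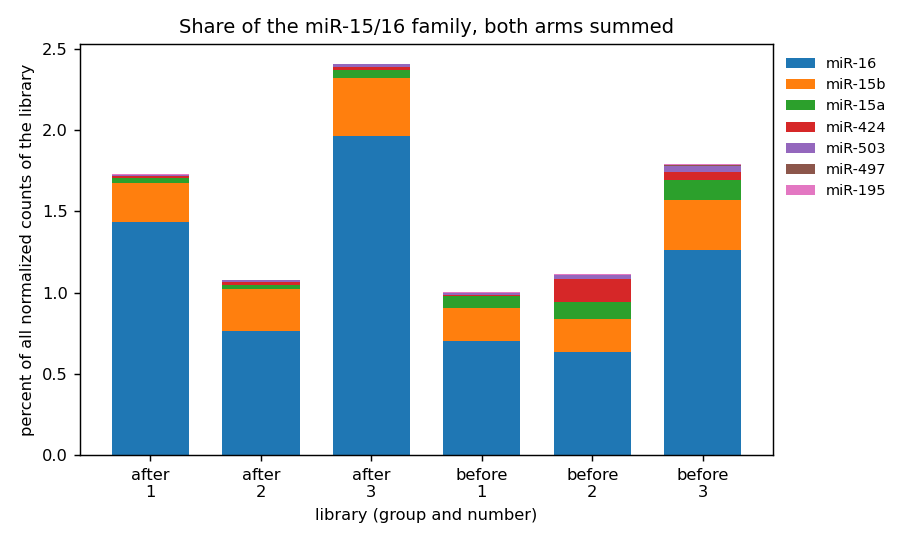
The share of each library's normalized counts (percent) taken by each miRNA of the family is stacked per library, with the 3 libraries after ischemia left of the 3 libraries before ischemia. miR-16 is the largest part of every bar, and the whole family holds 1.08 to 2.41% after and 1.003 to 1.79% before ischemia.

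The 5p entries kept a wide order of levels. After ischemia, miR-16-5p had a median of 162313 normalized counts, followed by miR-15b-5p (25898), miR-15a-5p (3820), miR-503-5p (1121), miR-424-5p (736), miR-195-5p (419) and miR-497-5p (242). Before ischemia the medians were 55463 for miR-16-5p, 17045 for miR-15b-5p, 10946 for miR-15a-5p, 3091 for miR-424-5p, 2645 for miR-503-5p, 399 for miR-497-5p and 241 for miR-195-5p. miR-497-5p and miR-195-5p stood in opposite order in the groups, and neither pair of ranges overlapped. miR-503-5p overlapped miR-424-5p in both groups, miR-424-5p overlapped miR-195-5p after ischemia, and before ischemia the wide range of miR-424-5p overlapped miR-15a-5p and that of miR-503-5p overlapped miR-497-5p.

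**Figure D2:**
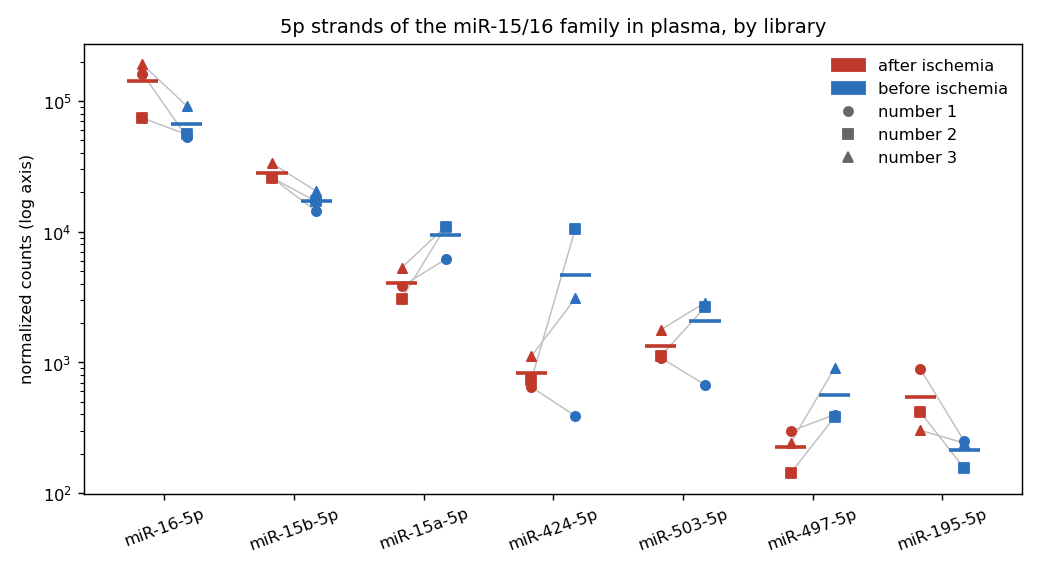
The plot of 5p levels by library gives normalized counts on a log axis for the main 5p entry of each gene, with 1 point per library, after ischemia left of before ischemia, bars at the group means and lines joining the libraries of 1 monkey. miR-15b-5p and miR-195-5p are higher in all 3 libraries after ischemia than in any library before ischemia, while miR-15a-5p and miR-497-5p are lower.

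A total of 14 family entries reached 10 normalized counts in 3 libraries and were tested among 807 entries with limma. None of the 14 was called higher and none lower at an adjusted p under 0.05, against 16 entries or 1.98% called higher and 28 or 3.47% called lower in the whole table. At an unadjusted p under 0.05 the family had 3 higher entries (miR-15b-5p, miR-16-5p and miR-195-5p) and 3 lower ones (miR-15a-5p, miR-16-1-3p and miR-497-5p), where the whole table had 9.79% higher and 12.5% lower. Under the deposited scaling, the groups did not overlap for 2 higher entries (miR-15b-5p and miR-195-5p) and for 2 lower ones (miR-15a-5p and miR-497-5p), against 11.5% and 15.4% of all tested entries. As shares of all normalized counts, the 2 higher entries overlapped between the groups and the 2 lower ones did not. The matching percentages over all tested entries were not computed for shares. The median log2 fold change was 0.22 over the family's tested entries, with 8 of 14 above 0, and -0.06 over all entries, with 383 of 807 above 0.

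**Figure D3:**
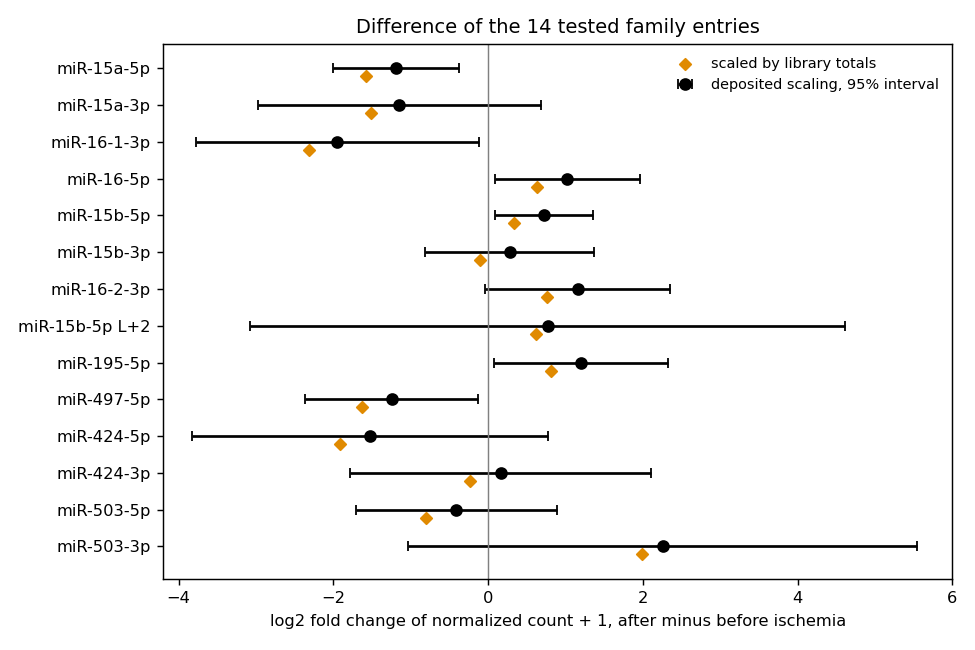
The log2 fold change of the normalized count + 1 (after minus before ischemia) is drawn for the 14 tested family entries, with black points and 95% intervals under the deposited scaling and orange diamonds for scaling by library totals. The intervals of miR-15b-5p, miR-16-5p and miR-195-5p lie above 0 and those of miR-15a-5p, miR-16-1-3p and miR-497-5p below 0, although no entry passed the adjusted test under the deposited scaling.

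In the pair of MIR15B and MIR16-2, 3 of the 4 arms had higher levels after ischemia in every monkey. miR-16-5p, the mature strand that both miR-16 genes produce, had 162313, 74172 and 190538 normalized counts after ischemia in monkeys 1, 2 and 3, against 53478, 55463 and 92085 before ischemia. It was higher in each of the 3 monkeys, but the groups overlapped, since monkey 2 after ischemia lay below monkey 3 before ischemia. The log2 fold change was 1.02 (SE 0.41, adjusted p = 0.180), and 0.63 when scaled by library totals. The miRNA ranked 11 to 31 among all entries after ischemia and 26 to 40 before ischemia.

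miR-16-2-3p, the other strand of the hairpin beside miR-15b, had 30542, 12242 and 29861 normalized counts after ischemia, against 5506, 9676 and 18909 before ischemia. It was higher in 3 of 3 monkeys, by most in monkey 1 and by the least in monkey 2, with a log2 fold change of 1.16 (SE 0.52, adjusted p = 0.237). Without both libraries of monkey 2, a setting chosen after the values were seen, miR-16-5p (log2 fold change 1.33, adjusted p = 0.0350) and miR-16-2-3p (1.57, adjusted p = 0.0368) passed the threshold. Over all alternatives the adjusted p ranged between 0.0350 and 0.483 for miR-16-5p and between 0.0368 and 0.695 for miR-16-2-3p.

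miR-15b-5p, which shares the seed of miR-16 and comes from the neighbouring hairpin, had 25898, 25889 and 33307 normalized counts after ischemia, against 14325, 17045 and 20479 before ischemia. Under the deposited scaling, all libraries after ischemia exceeded all libraries before ischemia, and the log2 fold change was 0.72 (SE 0.28, adjusted p = 0.166). As shares of all normalized counts the groups overlapped, at 0.193, 0.230 and 0.297% after and 0.171, 0.166 and 0.233% before ischemia. The median shift between scalings over all tested entries was -0.37, and the fold change of miR-15b-5p was 0.33 (adjusted p = 0.543) when scaled by library totals. The opposite strand, miR-15b-3p, had 5901, 2593 and 6712 normalized counts after and 2481, 3625 and 6351 before ischemia. Its groups overlapped almost wholly, with a log2 fold change of 0.28 (SE 0.48, adjusted p = 0.791) that turned to -0.11 under library totals and, at its lowest with 1 library left out, to -0.0351.

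The pair of MIR15A and MIR16-1 ran the other way. miR-15a-5p, which differs from miR-15b-5p only outside the seed, had 3820, 3076 and 5298 normalized counts after ischemia, against 6155, 10946 and 11007 before ischemia. It was lower in 3 of 3 monkeys without overlap of the groups, at 4065 ± 1131 after and 9370 ± 2784 before ischemia (SD, n = 3 each). The log2 fold change of -1.19 (SE 0.36) missed the threshold at an adjusted p of 0.105 and passed it when scaled by library totals (-1.58, adjusted p = 0.0355). Over all alternatives the adjusted p lay between 0.0355 and 0.382, and the fold change between -1.58 and -0.87.

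Both 3p arms of this pair were rare. miR-16-1-3p had 9.65, 6.41 and 29.8 normalized counts after ischemia, which are 7, 5 and 16 counts, against 24.9, 72.6 and 71.8 before ischemia, which are 32, 108 and 127 counts. It was lower in 3 of 3 monkeys, with overlap between monkey 3 after and monkey 1 before ischemia, and its log2 fold change was -1.95 (SE 0.80, adjusted p = 0.189). miR-15a-3p had 11.0, 6.41 and 18.6 normalized counts after and 12.5, 30.3 and 44.1 before ischemia, and its log2 fold change was -1.15 (SE 0.80, adjusted p = 0.433). All 3 entries that come from this pair alone were lower in each monkey.

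The 3p arms allowed the copies of miR-16 to be told apart within a library, where the scaling factor cancels. miR-16-1-3p made up 0.0316, 0.0523 and 0.0995% of the counts of both miR-16 3p entries after ischemia, against 0.451, 0.745 and 0.378% before ischemia. The exact Clopper-Pearson 95% intervals, which cover counting error only, reached at most 0.162% in a library after ischemia and were at least 0.309% in a library before ischemia. The ratio of miR-16-2-3p to miR-16-1-3p was higher after ischemia by 3.15 on the log2 scale, and by 3.80, 3.74 and 1.92 in the 3 monkeys. The two-sided exact permutation test gave p = 0.1, the smallest that 3 against 3 libraries allow (adjusted p = 0.1 over the 2 copy ratios, which were added after the values were seen). The abundance of the 3p strand also depends on how each hairpin is processed, which was not tested.

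Ratios of the 5p arms stood apart in the same way. miR-16-5p was 42.5, 24.1 and 36.0 times as abundant as miR-15a-5p after ischemia in monkeys 1, 2 and 3, against 8.69, 5.07 and 8.37 times before ischemia. The log2 ratio was higher after ischemia by 2.21, with monkey values of 2.29, 2.25 and 2.10, and no overlap of groups (exact permutation p = 0.1, adjusted p = 0.2 over 4 neighbour ratios). The difference varied little between monkeys, and it lay between 1.96 and 2.45 when any 1 library was left out. For miR-15b-5p over miR-15a-5p, the ratios were 6.78, 8.42 and 6.29 after and 2.33, 1.56 and 1.86 before ischemia, a difference of 1.91 on the log2 scale (exact permutation p = 0.1, adjusted p = 0.1). miR-16-5p over miR-15b-5p differed by 0.30 with overlapping groups (exact permutation p = 0.5, adjusted p = 0.5) and with a lower ratio after ischemia in monkey 2.

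**Figure D4:**
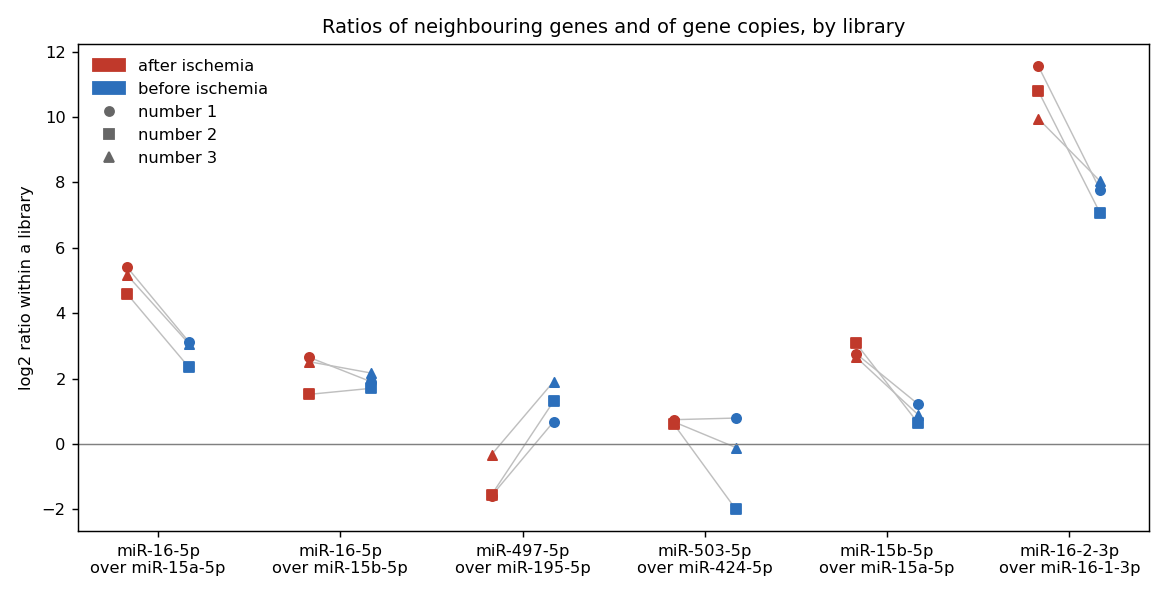
Log2 ratios within a library are plotted for neighbouring genes and gene copies of the family, after ischemia left of before ischemia, with lines joining the libraries of 1 monkey. The ratio of miR-16-5p to miR-15a-5p lies at 4.59 to 5.41 after and 2.34 to 3.12 before ischemia, and that of miR-497-5p to miR-195-5p at -1.59 to -0.33 after and 0.68 to 1.91 before ischemia.

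Within the pair of MIR195 and MIR497, the neighbours stood on opposite sides of 0. miR-195-5p, a close relative of miR-16-5p by sequence, had 896, 419 and 303 normalized counts after ischemia, against 249, 155 and 241 before ischemia. It was higher in 3 of 3 monkeys without overlap under the deposited scaling, with a log2 fold change of 1.20 (SE 0.49, adjusted p = 0.189). The highest library after ischemia, that of monkey 1, was 2.96 times the lowest. Scaled by library totals, the fold change was 0.81 (adjusted p = 0.356). As a share of all normalized counts, miR-195-5p overlapped between the groups. In monkey 3 this share was slightly lower after ischemia (0.00270%) than before ischemia (0.00275%). miR-497-5p had 298, 142 and 242 normalized counts after ischemia, against 399, 382 and 906 before ischemia. It was lower in 3 of 3 monkeys without overlap, with a log2 fold change of -1.25 (SE 0.49, adjusted p = 0.172, and 0.0861 under library totals).

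Set against each other, miR-497-5p stood at 0.333, 0.340 and 0.798 times the level of miR-195-5p after ischemia and at 1.60, 2.46 and 3.75 times before ischemia. The log2 ratio was lower after ischemia by 2.26, 2.86 and 2.23 in monkeys 1, 2 and 3, with a mean difference of -2.45 (exact permutation p = 0.1, adjusted p = 0.2). It lay between -2.87 and -2.15 when any 1 library was left out. miR-195-3p was under the filter, with 16.5 normalized counts in monkey 1 after ischemia, 0 in monkeys 2 and 3 after ischemia, and 4.67, 8.07 and 5.65 before ischemia.

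The pair of MIR424 and MIR503 varied most between monkeys before ischemia. miR-424-5p had 649, 736 and 1116 normalized counts after ischemia, against 389.5, 10562 and 3091 before ischemia. The highest library before ischemia was 27.1 times the lowest, and the SD of the log2 values in that group exceeded that of 95.9% of tested entries. The log2 fold change was -1.52 (SE 1.01, adjusted p = 0.413), with a higher value after ischemia in monkey 1 and lower values in monkeys 2 and 3. Leaving out monkey 1 before ischemia moved it to -2.82 (adjusted p = 0.0316), and leaving out monkey 2 before ischemia to -0.44 (adjusted p = 0.837), so that single libraries decided this value.

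miR-424-3p had 1004, 1255 and 1036 normalized counts after ischemia, against 223, 3564 and 1173 before ischemia. Its levels after ischemia lay within 1.25-fold of each other and inside the 15.99-fold range before ischemia, and the log2 fold change was 0.16 (SE 0.85, adjusted p = 0.946), or -0.23 under library totals. Without monkey 1 before ischemia it was -0.90, and without monkey 2 before ischemia 1.09. miR-424-5p was 0.647, 0.586 and 1.08 times as abundant as miR-424-3p after ischemia, against 1.75, 2.96 and 2.63 times before ischemia.

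This log2 arm ratio was lower after ischemia by 1.43, 2.34 and 1.29 in monkeys 1, 2 and 3, without overlap of the groups and with a mean difference of -1.69. The exact permutation test gave p = 0.1, its smallest value, and an adjusted p of 0.5 over 5 arm ratios. The other 4 ratios computed overlapped between the groups, and no arm ratio was computed for miR-195 and miR-497, which did not reach 10 normalized counts in 3 libraries on both arms. The mean log2 ratio of 5p to 3p was 8.43 after and 8.44 before ischemia for miR-15a, 2.59 and 2.15 for miR-15b, and 2.56 and 2.69 for miR-16 with both copies summed. Their differences were -0.01 (SD 0.34 after and 0.47 before ischemia), 0.44 (0.64 and 0.43) and -0.13 (0.14 and 0.52), with exact permutation p values of 1, 0.5 and 0.9 (adjusted p = 1, 0.833 and 1).

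miR-503-5p, whose seed differs in its last base, had 1086, 1121 and 1783 normalized counts after ischemia, against 675, 2645 and 2865 before ischemia. The groups overlapped, and the log2 fold change was -0.41 (SE 0.57, adjusted p = 0.725). miR-503-3p had 55.1, 82.1 and 40.9 normalized counts after ischemia, against 0, 87.4 and 19.2 before ischemia. Its fitted log2 fold change of 2.26 (SE 1.44, adjusted p = 0.390) depended on the library listed at 0, in which the floor was 2.34 normalized counts, and without that library it was 0.46.

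With the 3p arm at its floor there, the ratio of 5p to 3p of miR-503 was 19.7, 13.7 and 43.6 after ischemia, against at least 289 in monkey 1 and 30.3 and 149 in monkeys 2 and 3 before ischemia. The log2 difference was then -2.26, in place of -3.004 with 0.5 added to both sums (exact permutation p = 0.2 for both, adjusted p = 0.5 for the planned ratio). miR-503-5p over miR-424-5p was nearly level after ischemia, at 1.67, 1.52 and 1.60, against 1.73, 0.2504 and 0.927 before ischemia (log2 difference 1.11, exact permutation p = 0.4, adjusted p = 0.5). This difference was 0.33 without monkey 2 before ischemia and 1.73 without monkey 1 before ischemia, and the arm difference of miR-503 was -1.55 without monkey 1 and -4.30 without monkey 2 before ischemia.

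**Figure D5:**
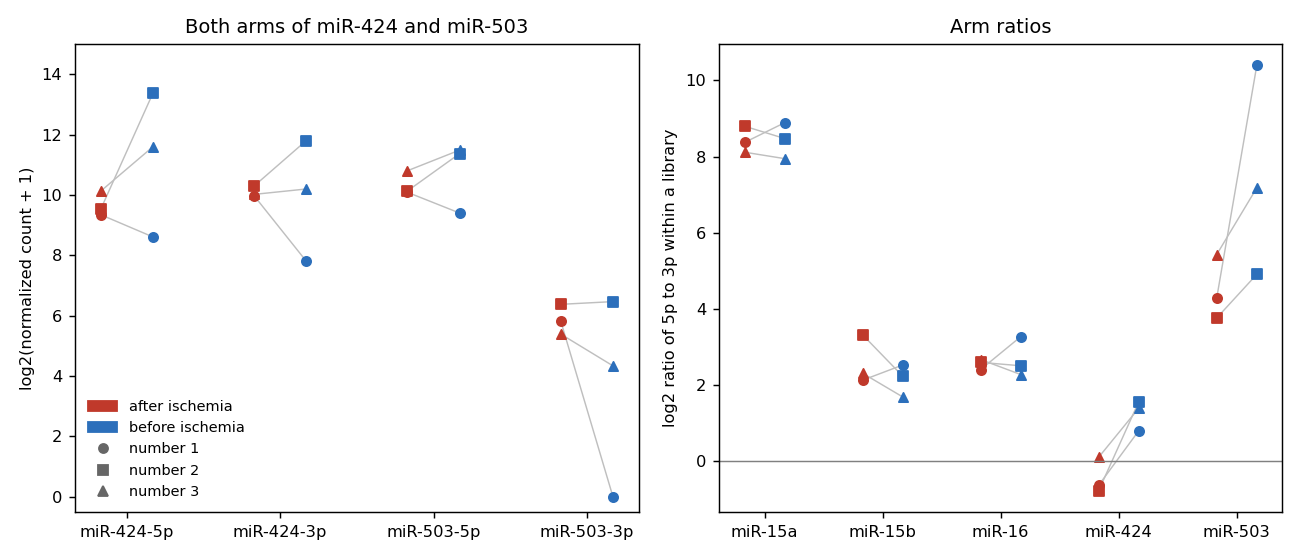
The left plot gives log2(normalized count + 1) of both arms of miR-424 and miR-503 by library, and the right plot the log2 ratio of 5p to 3p within a library for 5 precursors, with after ischemia left of before ischemia and lines joining the libraries of 1 monkey. The miR-424 ratio lies at -0.77 to 0.11 after and 0.80 to 1.57 before ischemia, and the miR-503-3p point at 0 is the library in which that arm is listed at 0.

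Where an arm had more than 1 entry, the additional forms added little. The main entry held 99.9 to 100% of the counts of miR-15b-5p and at least 99.98% of those of miR-16-5p in every library. Most other arms had a single entry that is itself named as a trimmed, extended or substituted form, so that their isomiR makeup cannot be read here. The additional forms carried the species prefixes chi and cgr, which are read here as goat and Chinese hamster. The hamster form of miR-15b-5p with 2 added bases, which moves the seed window off AGCAGCA, is shown for that shift.
miR-15b-5p with 2 added bases: aATAGCAGcacatcatggtttaca
Its level was 0, 20.5 and 37.2 normalized counts after ischemia, against 0, 15.5 and 9.05 before ischemia, and its log2 fold change was 0.77 (SE 1.69, adjusted p = 0.855). It was the only tested member of these forms. The other 4, a goat-named miR-16-5p, a shorter form of the same miR-15b-5p, a hamster-named miR-15b-3p and a miR-16-5p with 4 added bases, had at most 16.5 normalized counts in any library.

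Across the 6 libraries, the nearest entries outside the family were listed for each main 5p entry by Pearson r of the log2 levels, which also reflects shared depth and scaling. Each list holds the 3 highest of many r values over only 6 libraries, so that high values can arise by selection alone. miR-16-5p was nearest to miR-486-3p (r = 0.991), miR-1255b (0.980) and miR-144 (0.979), of which miR-486 and miR-144 are red blood cell miRNAs. miR-15a-5p was nearest to miR-101-3p (0.976), miR-140-3p (0.973) and miR-32-5p (0.970). miR-15b-5p was nearest to an entry named for miR-219a-1-3p (0.983), a predicted candidate (0.959) and miR-505-5p (0.946). The lists of the pair partners miR-15a-5p and miR-16-5p had no entry in common, but lists of 3 from so many entries seldom would.

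miR-195-5p was nearest to miR-375 (0.991), a miR-100 entry (0.984) and a miR-378 entry (0.984). miR-497-5p was nearest to a predicted candidate (0.983), miR-92a-3p (0.938) and miR-324-3p (0.927), of which miR-92a is also on the red blood cell list used below. miR-424-5p was nearest to miR-450a-5p (0.979), whose gene lies in the same row on chromosome X, followed by miR-372-3p (0.970) and an entry named for miR-371b-5p (0.960). miR-503-5p was nearest to miR-372-3p (0.954), miR-373 (0.934) and a predicted candidate (0.920). Within the family, the libraries ordered miR-15a-5p much as its neighbour's strand miR-16-1-3p (r = 0.98), miR-16-5p as miR-16-2-3p (0.95) and miR-424-5p as miR-503-5p (0.89). Other neighbouring 5p entries ran in opposite directions, with r = -0.41 for miR-195-5p and miR-497-5p and r = -0.37 for miR-15a-5p and miR-16-5p, while miR-15b-5p and miR-16-5p had r = 0.87. Strong r was not limited to neighbours, with 0.83 for miR-15a-5p and miR-497-5p and -0.81 for miR-16-1-3p and miR-195-5p. Other such pairs lay near 0, as miR-16-2-3p and miR-424-5p (0.0016). These r values pool both groups and therefore also hold the difference between them.

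Because miR-16 is abundant in red blood cells, it was set beside miRNAs of these cells. The red blood cell list held 35.6, 15.9 and 30.2% of normalized counts after ischemia, against 11.5, 11.0 and 25.6% before ischemia, and the sum was higher after ischemia in each monkey. Without miR-486-5p, left out after the values were seen, the list held 5.10, 3.38 and 6.55% after ischemia. Before ischemia it held 5.24, 5.59 and 10.3%. Its share was lower after ischemia in each monkey, but miR-486-5p stayed in the total, so that the share also depends on miR-486-5p. Of its tested entries, 8 of 17 had a log2 fold change above 0, with a median of -0.06. Of the 20 tested entries of the whole list, 0 were called higher and 2 lower (miR-92a-3p and miR-185-3p), 11 had a log2 fold change above 0, and the median was 0.14, against 1.98% called higher, 3.47% called lower, 383 of 807 above 0 and a median of -0.06 over all tested entries. miR-486-5p alone held 30.5, 12.5 and 23.6% after and 6.29, 5.42 and 15.3% before ischemia, and miR-451, which red blood cells carry in quantity, held 2.18, 0.530 and 3.13% after and 1.20, 1.02 and 3.22% before ischemia. The part of red blood cell RNA in the level of miR-16-5p was not tested.

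miR-16-5p stood at 0.556, 1.24 and 0.542 times miR-451 after ischemia and at 0.531, 0.527 and 0.326 times before ischemia (log2 difference 0.68, exact permutation p = 0.1, adjusted p = 0.2 over 3 ratios). The groups did not overlap, but in monkey 1 the difference was 0.07. Against miR-486-5p it was lower after ischemia, at 0.0396, 0.0527 and 0.0718 times against 0.102, 0.0997 and 0.0685 times before ischemia (log2 difference -0.74, exact permutation p = 0.2, adjusted p = 0.2). Against miR-23a-3p, the usual counterpart in checks for hemolysis, it was 2.54, 1.11 and 1.97 times after and 0.669, 0.570 and 1.22 times before ischemia (log2 difference 1.19, exact permutation p = 0.2, adjusted p = 0.2). The ratio of miR-16-5p to miR-23a-3p was higher after ischemia in 3 of 3 monkeys, with overlap between monkey 2 after and monkey 3 before ischemia.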

How the data were processed

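Small RNA of plasma was sequenced by the authors with a TruSeq small RNA kit. Per the labels, ACGT101-miR removed adapters, junk, repeats and other RNA families, and the deposited signal values are counts per miRNA normalized by the authors with 1 factor per library; the genome build is not given in the sources used here. No column was left without a sample (0), and 5 emptied lines were not analysed here. Log2(value + 1) was compared with limma 3.58.1 in R 4.3.3, with a variance trend and no covariate, for all entries with at least 10 normalized counts in 3 libraries, and p was adjusted by Benjamini-Hochberg over all 807 (threshold 0.05). Ratios within a library used 0.5 added to both sums and two-sided exact permutation tests. Counts per entry were obtained by dividing by the worth of 1 count in a library (84.0 to 86.9% of values came out whole within 0.01), and intervals (95%) cover counting error only. Python 3.11.15, NumPy 2.4.6, SciPy 1.17.1, pandas 2.3.3 and Matplotlib 3.10.9 were used, and the fit was tested on simulated data.

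Libraries were grouped by the labelled condition. Their numbers were taken to pair them, which the labels do not state, since the study sampled the same 3 monkeys and joins equal numbers. Deviations from the group means correlated weakly, at 0.18, 0.36 and 0.29 for equal numbers and between -0.40 and 0.14 for the others. The test of the paper was not used. Every family entry past the filter was named, others where they show an arm, copy or isomiR not otherwise seen, and the 3 nearest entries by Pearson r for each main 5p entry. The members and lists (red blood cells, platelets, leukocytes, vessel wall, liver) were chosen with earlier results of these data known. Alternatives covered scaling, filter, pseudocount, variance trend, replicate block, merged entries and each library left out.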

Additional observations from a re-analysis of the deposited data

How the results depend on the processing

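With the replicate block, 0 family entries were higher and 0 lower, as without it, and the block changed no call. Scaling by library totals called 1 entry lower (miR-15a-5p) and turned miR-15b-3p (-0.11) and miR-424-3p (-0.23). With each library left out in turn, between 0 and 1 entry was lower, the 1 being miR-424-5p without monkey 1 before ischemia, and 0 were higher. The fold changes ranged between -0.0351 and 0.71 for miR-15b-3p, between -0.90 and 1.09 for miR-424-3p and between -0.46 and 2.38 for the miR-15b-5p with 2 added bases. The differences in arm ratio ranged between -0.25 and 0.22 for miR-15a and between -0.33 and 0.17 for miR-16. Leaving out both libraries of a monkey, a choice made after seeing the data, called 2 entries higher without monkey 2 (miR-16-5p and miR-16-2-3p). It gave -0.20 for miR-15b-3p and -0.84 for miR-424-3p without monkey 1, and 0.0016 for miR-503-5p without monkey 2. The causes were not tested. Entries of a few counts are limited by depth, mainly after ischemia.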

Other observations

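Other cell types known to release small RNA into plasma were described by lists, with no test of a list. Over all 807 tested entries, 1.98% were called higher and 3.47% lower, 9.79% were higher and 12.5% lower at an unadjusted p under 0.05, and the median log2 fold change was -0.06. The leukocyte list (miR-142, miR-150, miR-155, miR-146a and miR-342) held 3.50 to 3.95% of normalized counts after and 2.09 to 2.75% before ischemia. Of its 11 tested entries, 1 was higher and 1 lower at the adjusted threshold of limma, and the median log2 fold change was 0.97. At an unadjusted p under 0.05 of limma, 3 were higher and 1 lower. The vessel wall list (miR-143, miR-145, miR-221 and miR-222) held 1.40 to 2.40% after and 2.42 to 2.76% before ischemia, with a median of 0.14 and 0 of 6 tested entries called by limma, while 1 was higher at an unadjusted p under 0.05. The platelet list held 4.80 to 7.65% after and 5.95 to 9.33% before ischemia, with a median of -0.06 and 0 of 17 entries called, and 1 higher and 2 lower at an unadjusted p under 0.05. The liver list, of miR-122 alone, held 0.0651 to 1.82% after and 0.146 to 1.36% before ischemia, with a median of -0.08 and 0 of 2 entries called, at an unadjusted p under 0.05 as well. Both high liver values belonged to monkey 1, at 1.82% after and 1.36% before ischemia.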
